A study of Mus musculus with 9 samples.

Results

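The SLC39 genes encode the ZIP transporters, a family of membrane proteins that move zinc, and in some members also iron and manganese, into the cytosol from outside the cell or from organelles. The SLC30 (ZnT) transporters work in the opposite direction, and metallothioneins bind zinc in the cytosol. Zinc is known to build up in inner retinal neurons when the optic nerve is injured, and RNA of the importers in cells sorted as retinal ganglion cells (RGCs) is described here after optic nerve crush (ONC) and after zinc chelation. The members were chosen by name as 10 SLC39 genes, and rows for 9 of them were found in the table of 15228 genes. Slc39a8 was not analysed here. The 9 genes all reached the mean level of at least 0.5 RPKM (reads scaled by exon length and by library size) that was required for testing, as did 13566 genes in all.

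All 9 libraries were labelled as wild-type (WT), the study's methods name C57BL/6J mice and ages of 6 to 8 weeks without tying them to libraries, and each of the 3 groups had 3 libraries. Ctrl was the uncrushed normal control, ONC had nerve crush and PBS, and TPEN had nerve crush and TPEN, a membrane-permeable chelator with high affinity for zinc. ONC and TPEN were taken at day 3, and by the study's methods vehicle or 100 μM TPEN was injected into the eye right after the crush. No injection is named for Ctrl, and the effects of the crush and of the injection cannot be told apart in ONC/Ctrl. Cells were sorted by flow cytometry as CD90.2+CD48-CD15-CD57-. It was not stated whether each library stands for its own mouse, so p-values measure only the spread between these libraries.

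The libraries held 19946993 to 23109754 reads. The RGC name was checked against marker levels. Rbpms ranked 13805 and Pou4f1 14252 of 15228 genes by mean RPKM, although Nefl ranked 153, while the 6 rod markers ranked between 2 and 142. The levels below are therefore those of the sorted mixture, and in such bulk RNA more cells of a type and more RNA per cell cannot be told apart.

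Among the members, Slc39a1 and Slc39a3 are the ones that passed the test in a comparison, and the sequences before their start sites are shown for this reason. They are the parts of the RefSeq promoter windows (GRCm38.p6, 250 bases before to 50 after the start) that lie outside listed exons, 5′ to 3′ on the strand of the gene. Capitals mark a match to the core of the metal response element, the site bound by the zinc sensor MTF1, searched on both strands as TGCACNC or TGCGCNC. The stretch of Slc39a1 is chr3:90247942-90248171 on the plus strand, and that of Slc39a3 is chr10:81037427-81037565 on the minus strand.
Slc39a1: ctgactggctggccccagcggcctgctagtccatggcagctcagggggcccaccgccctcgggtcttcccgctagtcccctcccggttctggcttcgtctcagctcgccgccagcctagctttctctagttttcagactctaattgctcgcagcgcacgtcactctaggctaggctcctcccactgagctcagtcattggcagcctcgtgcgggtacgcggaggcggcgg
Slc39a3: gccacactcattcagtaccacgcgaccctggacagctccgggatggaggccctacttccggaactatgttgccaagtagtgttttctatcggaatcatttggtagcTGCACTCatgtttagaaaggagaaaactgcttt
The Slc39a3 stretch held 1 match, TGCACTC, which ended 138 bases before the start site, and the Slc39a1 stretch and its whole window held 0. Promoter windows were matched for 7 of the 9 members, 9 windows in all, and 3 genes (Slc39a3, Slc39a11 and Slc39a13) had a match. Such a match was found in 25.7% of all 32851 windows of this length, so it is a common sequence. The letters TTCNNNGAA, the pattern bound by STAT factors, were in 8.30% of all windows and in 1 of the 9, an upstream window of Slc39a10. A match is a description of the letters and was not tested for binding.

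RPKM is scaled by exon length, so levels of different members can be set in order. Slc39a7, which encodes ZIP7 and releases zinc from the endoplasmic reticulum, was the highest in every library, at 34.5 to 42.5 RPKM. It made up 53.5% to 59.6% of the summed level of the 9 members, and this sum was 64.7 to 66.8 RPKM in Ctrl, 68.2 to 71.4 in ONC and 63.6 to 66.5 in TPEN. Of the 2594 exon bases of Slc39a7, 2078 are shared with the listed gene Gm20427, so this share and the sum are uncertain in size. Slc39a6 followed at 10.7 to 12.3 RPKM and Slc39a3 at 4.89 to 6.50 RPKM, and the ranges of these members did not overlap.

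Slc39a9 (2.85 to 3.64 RPKM), Slc39a10 (2.39 to 2.87), Slc39a1 (1.49 to 3.48) and Slc39a13 (1.80 to 2.52) came next by mean RPKM, and each overlapped the next in range. Slc39a9 was above Slc39a10 in 9 of 9 libraries all the same. The order of the others depended on the group, since Slc39a1 was below Slc39a10 in all Ctrl and TPEN libraries and above it in all ONC libraries. Slc39a14 (0.896 to 1.16 RPKM) and Slc39a11 (0.448 to 1.04 RPKM) were the lowest, and their ranges overlapped although Slc39a14 was the higher in 9 of 9 libraries. These levels rest on 30 to 80 reads per library for Slc39a11, 76 to 189 for Slc39a1 and 1783 to 2535 for Slc39a7.

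**Figure D1:**
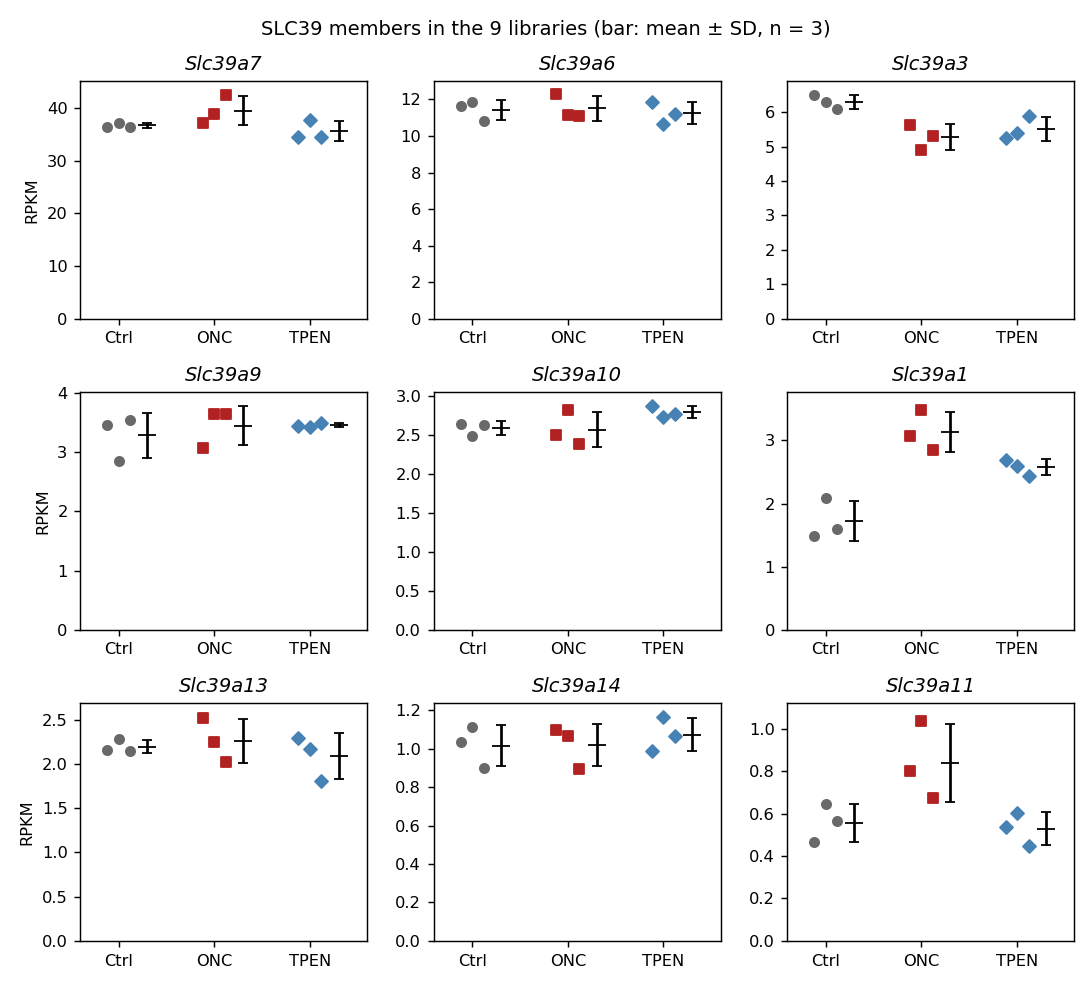
RPKM (vertical axis, from 0) of the 9 SLC39 members in the Ctrl, ONC and TPEN libraries, 1 panel for each gene, with a point for each library and the mean ± SD (n = 3) beside them. In Slc39a1 the 3 ONC libraries (2.85 to 3.48 RPKM) lie above the 3 TPEN libraries (2.44 to 2.69), which lie above the 3 Ctrl libraries (1.49 to 2.09), whereas in Slc39a6 and Slc39a14 the groups overlap.

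The first question was whether the crush was accompanied by a change in the importers. In ONC/Ctrl, Slc39a1 was upregulated and Slc39a3 downregulated, and 7 of the 9 members did not pass the test. The test was limma on log2(RPKM + 0.1) across the 13566 genes with Benjamini-Hochberg adjustment, and a gene was called at an adjusted p under 0.05. The 1 member upregulated and 1 downregulated of 9 compare with 11.7% and 6.97% of all genes, and the small list does not set the family apart from them. The median log2 fold change of the 9 members was 0.04, beside 0.02 for all genes.

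Slc39a1 encodes ZIP1, a zinc importer of the plasma membrane that many cell types express, and lies at chr3:90248172-90253612 (GRCm38, as are all positions). Its level was 1.49, 2.09 and 1.60 RPKM in Ctrl replicates 1 to 3, then 3.07, 3.48 and 2.85 in ONC and 2.69, 2.59 and 2.44 in TPEN. The groups did not overlap in any of the 3 comparisons. The Ctrl mean was 1.73 ± 0.317 RPKM, that of ONC 3.14 ± 0.318 RPKM and that of TPEN 2.57 ± 0.126 RPKM (SD, n = 3), so ONC was 1.82-fold above Ctrl. The log2 fold change in ONC/Ctrl was 0.83 (SE 0.13, adjusted p = 0.00151 by limma), and it ranked 432 of 13566 genes from the top. This call held in all 16 refits, each with 1 other choice of processing or 1 library left out, with an adjusted p of 0.000207 to 0.00816 by limma.

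Slc39a3 encodes ZIP3, a close relative of ZIP1 that also takes up zinc at the plasma membrane, and lies at chr10:81028538-81037426. Its level was 6.50, 6.30 and 6.10 RPKM in Ctrl, then 5.64, 4.89 and 5.31 in ONC and 5.25, 5.39 and 5.89 in TPEN. Every ONC and TPEN library was below every Ctrl library, and ONC and TPEN overlapped. ONC was 0.838 times Ctrl, a log2 fold change of -0.25 (SE 0.07, adjusted p = 0.0360 by limma). The call rested on single libraries, since the limma adjusted p was 0.111 without Ctrl replicate 1, 0.0870 without Ctrl replicate 2, 0.0536 without Ctrl replicate 3, 0.118 without ONC replicate 2 and 0.0796 without ONC replicate 3. The decrease was smaller than 1.5-fold, and with this fold required as well Slc39a1 was the only member called in ONC/Ctrl, where 5.34% of all genes were.

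The ratio of Slc39a1 to Slc39a3 was looked at after these values were seen. It was 0.229, 0.331 and 0.262 in Ctrl, 0.545, 0.712 and 0.537 in ONC, and 0.512, 0.480 and 0.414 in TPEN. In all 9 libraries Slc39a3 stayed the more abundant of the pair. The ratio in each crushed library was above that in each Ctrl library. This separation had to follow from the levels above, where each crushed library was higher than each Ctrl library in Slc39a1 and lower in Slc39a3. It is therefore no further evidence of a change.

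The second question was whether TPEN changed the importers after the crush. In TPEN/ONC, 0 of the 9 members were called by limma, where 3.24% of all genes were upregulated and 4.14% downregulated. With the 1.5-fold limit, 2.03% of all genes were called in either direction. At an unadjusted p under 0.05, 2 members of 9 were below ONC, Slc39a7 and Slc39a11, where 12.3% of all genes were, and limma with voom weights on the recovered reads also called 0. The median log2 fold change of the members was -0.03, beside -0.01 for all genes. ONC/Ctrl and TPEN/ONC share the ONC libraries, and ONC/Ctrl and TPEN/Ctrl the Ctrl libraries, so their values are not independent.

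Slc39a1 in TPEN lay below ONC in all 3 libraries, but the log2 fold change of -0.27 (95% interval -0.56 to 0.02, limma adjusted p = 0.254) did not pass the test. Set against the Ctrl and ONC means, 68.2%, 61.2% and 50.5% of the ONC/Ctrl difference was seen in TPEN replicates 1 to 3, a mean of 60.0% ± 8.90 (SD, n = 3). For Slc39a3 the share was 77.7% ± 33.3. Both SDs are over the TPEN libraries alone and leave out the spread of Ctrl and ONC, whose means were held fixed. Neither share is thus fixed in size. The TPEN/ONC log2 fold change of Slc39a3 was 0.06 (95% interval -0.10 to 0.22, limma adjusted p = 0.682).

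In TPEN/Ctrl, Slc39a1 was the 1 member upregulated of 9, beside 8.36% of all genes, and 0 were downregulated, beside 5.01%. Its log2 fold change was 0.56 (SE 0.13, adjusted p = 0.0186 by limma), a ratio of means of 1.49. This call was lost without Ctrl replicate 1 (adjusted p = 0.0636 by limma), Ctrl replicate 3 (0.0607), TPEN replicate 1 (0.0623) or TPEN replicate 2 (0.0543), and it fell just short of the 1.5-fold limit, at which 3.91% of all genes were called. The median log2 fold change of the members was -0.03, beside 0.01 for all genes. Slc39a3 had a log2 fold change of -0.19 in TPEN/Ctrl (adjusted p = 0.114 by limma), with no overlap of the groups.

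**Figure D2:**
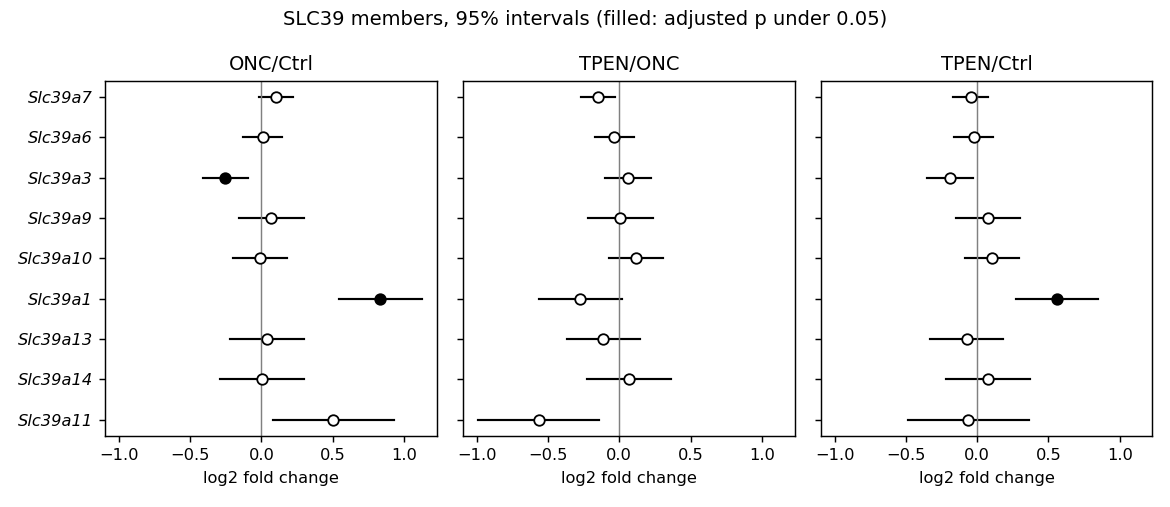
Log2 fold change (horizontal axis, on the log2(RPKM + 0.1) scale) of the 9 SLC39 members in ONC/Ctrl, TPEN/ONC and TPEN/Ctrl, with 95% intervals from limma and filled points at an adjusted p under 0.05. Slc39a1 is filled in ONC/Ctrl (0.83) and TPEN/Ctrl (0.56), Slc39a3 is filled in ONC/Ctrl (-0.25), and no point is filled in TPEN/ONC.

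Markers of other cells moved with Slc39a1. Of the 11 microglia and macrophage markers listed, none was at 0 in any library, and 10 were tested. All 10 were upregulated in ONC/Ctrl, beside 11.7% of all genes. In TPEN/ONC, 5 of the 10 were downregulated, beside 4.14% of all genes. The summed level of the 11 was 4.09 to 4.999 RPKM in Ctrl, 42.5 to 43.4 in ONC and 21.9 to 23.8 in TPEN, the same order of groups as Slc39a1. Among them Itgam, the integrin of myeloid cells, had a log2 fold change of 3.68 in ONC/Ctrl. The sort kept cells negative for CD48, a surface marker of leukocytes. The part of microglia and macrophages in the Slc39a1 level was not tested.

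**Figure D3:**
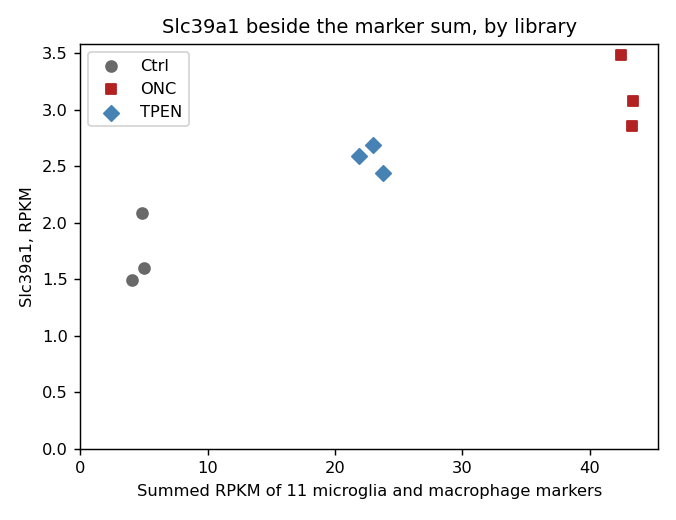
RPKM of Slc39a1 (vertical axis) beside the summed RPKM of 11 microglia and macrophage markers (horizontal axis), 1 point for each of the 9 libraries. The groups form separate clusters, with Ctrl at sums of 4.09 to 4.999, TPEN at 21.9 to 23.8 and ONC at 42.5 to 43.4 RPKM.

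The 6 rod markers summed to 19526 to 20166 RPKM in Ctrl, 16868 to 17027 in ONC and 18281 to 18340 in TPEN. This was the order of the Slc39a3 group means. In ONC/Ctrl 5 of the 6 were downregulated and 1 upregulated, beside 6.97% and 11.7% of all genes. Bipolar markers (43.3 to 44.1, 39.0 to 41.9 and 41.3 to 43.5 RPKM) and amacrine markers (26.1 to 27.9, 21.9 to 22.4 and 24.3 to 27.2) had the same order, with some overlap. Cone markers did not (102 to 107, 88.5 to 96.3 and 156 to 158). The 9 listed RGC markers summed to 333 to 344 RPKM in Ctrl, 349 to 370 in ONC and 269 to 281 in TPEN. Most of this was Nefl, at means of 257.7 RPKM in Ctrl, 264.5 in ONC and 197.9 in TPEN. From Ctrl to ONC the mean fell for Pou4f1 (0.571 to 0.183 RPKM), Rbpms (0.605 to 0.393), Isl1 (2.09 to 1.64) and Tubb3. It rose for Nefl, Nefm, Sncg, Thy1 and Slc17a6. Pou4f1, Rbpms and Slc17a6 were under the limit for testing, and Isl1, Tubb3, Nefl and Thy1 were not called in ONC/Ctrl. Nefm (adjusted p = 0.00111 by limma) and Sncg (0.0458) were called there, as upregulated. From ONC to TPEN the mean rose for Thy1 (5.35 to 7.12 RPKM), Pou4f1, Isl1 and Slc17a6, unlike the sum. The 8 Müller glia markers summed to 388 to 403 RPKM in Ctrl, 358 to 359 in ONC and 310 to 327 in TPEN, and in ONC/Ctrl 1 of them was upregulated and 3 were downregulated. Vim, a filament gene, had a log2 fold change of 1.59, Glul, the enzyme that makes glutamine, -0.57, the water channel gene Aqp4 -0.32 and Rlbp1, which encodes a retinaldehyde binding protein, -0.18. The 3 listed astrocyte markers summed to 5.54 to 6.21 RPKM in Ctrl, 27.2 to 28.3 in ONC and 17.3 to 20.1 in TPEN, the order of groups seen in Slc39a1. Most of the ONC and TPEN sums was Gfap, at means of 2.79 RPKM in Ctrl, 22.2 in ONC and 14.4 in TPEN. Gfap and Aldh1l1 were upregulated in ONC/Ctrl and S100b was not called (adjusted p = 0.507 by limma). In TPEN/ONC only Gfap was called, as downregulated. The part of these in the Slc39a1 and Slc39a3 levels was not tested either.

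Slc39a6 and Slc39a10 encode ZIP6 and ZIP10, paired importers of the LIV-1 subfamily that can form a complex at the plasma membrane. Slc39a6 was at 11.4 ± 0.544 RPKM in Ctrl, 11.5 ± 0.679 in ONC and 11.2 ± 0.596 in TPEN (SD, n = 3). Slc39a10 (chr1:46807544-46892852) was at 2.58 ± 0.0859, 2.57 ± 0.222 and 2.79 ± 0.0769 RPKM in the same order. Neither was called in any comparison. The 95% interval of the ONC/Ctrl log2 fold change was -0.13 to 0.15 for Slc39a6 and -0.20 to 0.18 for Slc39a10, which leaves room for changes of this size.

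Slc39a14 (chr14:70303469-70351425) encodes ZIP14, which carries zinc, non-transferrin iron and manganese, and its liver form is known to rise with interleukin 6 signalling in inflammation. It was at 1.04, 1.11 and 0.902 RPKM in Ctrl, then 1.10, 1.06 and 0.896 in ONC and 0.991, 1.16 and 1.06 in TPEN. The 3 groups overlapped. Its log2 fold change in ONC/Ctrl was 0.00 (95% interval -0.29 to 0.30, limma adjusted p = 0.990).

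Of a list of 8 genes of interleukin 6 and NF-κB signalling, 7 had a row and 6 were tested. In ONC/Ctrl 5 of these 6 were upregulated, beside 11.7% of all genes. Stat3, the transcription factor of the interleukin 6 route, had a log2 fold change of 1.97, Socs3, its feedback inhibitor, of 1.92, and Il6st, the shared receptor subunit, of 1.21. Il1b, an inflammatory cytokine, had 3.20 and Nfkbia, the NF-κB inhibitor, 0.48, while Nfkb1 at 0.50 did not pass (adjusted p = 0.0522 by limma). In TPEN/ONC, Il1b (log2 fold change -2.54) and Nfkbia (-0.47) were downregulated, whereas Stat3 (-0.07), Il6st (-0.04), Socs3 (-0.55) and Nfkb1 (0.39) did not pass. Il6 was not analysed here, and Il6ra was under the limit for testing.

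Slc39a7, at chr17:34028267-34031690, was at 36.5, 37.2 and 36.4 RPKM in Ctrl, then 37.1, 38.9 and 42.5 in ONC and 34.5, 37.8 and 34.5 in TPEN. ONC replicate 3 was the highest of the 9, and the groups overlapped in every comparison. The log2 fold change was 0.10 in ONC/Ctrl (adjusted p = 0.222 by limma) and -0.15 in TPEN/ONC (95% interval -0.27 to -0.03, limma adjusted p = 0.135). Of its 2594 exon bases, 2078 are shared on the same strand with Gm20427, a listed processed transcript at 25.4 to 29.5 RPKM, so the reads of the pair cannot be told apart and its place at the top of the order is uncertain in size.

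Slc39a9, Slc39a11 and Slc39a13 encode ZIP9, ZIP11 and ZIP13, transporters found mostly on membranes inside the cell such as the Golgi apparatus. Slc39a11 was the member with the largest change that missed the test, and lies at chr11:113244853-113650079. It was at 0.465, 0.644 and 0.563 RPKM in Ctrl, then 0.803, 1.04 and 0.674 in ONC and 0.536, 0.603 and 0.448 in TPEN. All ONC libraries were above all others, and Ctrl and TPEN overlapped. The log2 fold change was 0.50 in ONC/Ctrl (SE 0.19, adjusted p = 0.0972 by limma) and -0.57 in TPEN/ONC (SE 0.19, adjusted p = 0.110 by limma). At 30 to 80 reads a library its counting error is the highest of the 9.

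Slc39a9 (chr12:80644215-80683341) was at 3.29 ± 0.378 RPKM in Ctrl, 3.45 ± 0.328 in ONC and 3.46 ± 0.0382 in TPEN (SD, n = 3), and Slc39a13 (chr2:91061791-91070417) at 2.19 ± 0.0719, 2.26 ± 0.250 and 2.09 ± 0.255 RPKM. Neither was called in any comparison, and every limma adjusted p of the pair was at or above 0.632. Slc39a9 shares 127 exon bases with Erh and Slc39a13 215 with Psmc3 on the opposite strand, and since use of the strand in counting was not stated, some of their reads may be of these more abundant genes.

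Counted over the 9 members, groups did not overlap for 3 in ONC/Ctrl (Slc39a1, Slc39a3 and Slc39a11), 2 in TPEN/ONC (Slc39a1 and Slc39a11) and 3 in TPEN/Ctrl (Slc39a1, Slc39a3 and Slc39a10). Over all tested genes this held for 36.5%, 28.0% and 31.3%. The shares of the members were thus near those of all genes.

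The other zinc handling genes were taken from a list of 14, of which 10 were tested, and give the setting of these levels. In ONC/Ctrl 3 of the 10 were upregulated and 0 downregulated, beside 11.7% and 6.97% of all genes. All 3 were metallothioneins, and no tested SLC30 exporter or Mtf1, the zinc sensor, was called. Mt2 was at 1.82, 1.69 and 1.69 RPKM in Ctrl, then 12.9, 14.7 and 14.3 in ONC and 10.04, 12.1 and 9.21 in TPEN. Its log2 fold change was 2.94 in ONC/Ctrl and 2.51 in TPEN/Ctrl.

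In TPEN/Ctrl the same 3 were upregulated and 0 downregulated, beside 8.36% and 5.01% of all genes. In TPEN/ONC 0 were upregulated and 1 downregulated, beside 3.24% and 4.14%. Mt1 had log2 fold changes of 1.64 in ONC/Ctrl and 1.32 in TPEN/Ctrl, the second of which was lost without TPEN replicate 1 (adjusted p = 0.0510 by limma) or TPEN replicate 2 (0.0604). Mt3 had 0.89 in ONC/Ctrl (adjusted p = 0.0465 by limma) and 0.98 in TPEN/Ctrl (0.0398), at 0.280 to 1.03 RPKM. Its levels rest on only 6 to 24 reads per library, beside 20 to 128 for Mt1 and 20 to 198 for Mt2. Both Mt3 calls were lost under several alternatives, voom among them (0.0942 and 0.0726). The Mt3 call in ONC/Ctrl was also lost without any 1 of the Ctrl libraries, ONC replicate 1 or 2, or TPEN replicate 2 (limma adjusted p = 0.0643 to 0.152), and that in TPEN/Ctrl without any 1 of the Ctrl libraries, ONC replicate 2, or TPEN replicate 2 or 3 (0.0569 to 0.128). In TPEN/ONC the 1 gene called was Mt2, lower by a log2 fold change of -0.42 (adjusted p = 0.0289 by limma), and it was lost without ONC replicate 1 (0.0504), 2 (0.103) or 3 (0.0955) and without TPEN replicate 1 (0.0887) or 3 (0.0957). The median log2 fold change of the 10 genes was 0.07 in ONC/Ctrl, 0.04 in TPEN/ONC and 0.12 in TPEN/Ctrl, beside 0.02, -0.01 and 0.01 for all genes.

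**Figure D4:**
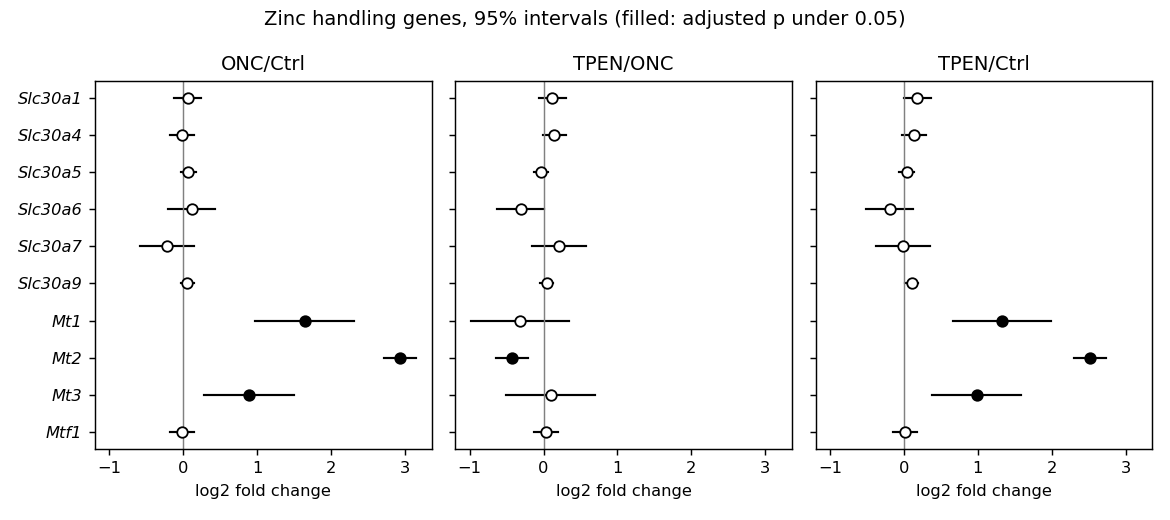
Log2 fold change (horizontal axis, on the log2(RPKM + 0.1) scale) of the 10 tested zinc handling genes in ONC/Ctrl, TPEN/ONC and TPEN/Ctrl, with 95% intervals from limma and filled points at an adjusted p under 0.05. The 3 metallothioneins are filled to the right of 0 in ONC/Ctrl and TPEN/Ctrl, Mt2 is filled at -0.42 in TPEN/ONC, and the 6 SLC30 genes are open throughout.

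The genes whose pattern was most like that of a member were found by Pearson's r of log2(RPKM + 0.1) over the 9 libraries, among 12135 genes whose mean reached 1 RPKM. For Slc39a1, the member with the smallest p over the 3 groups, they were Gm43488 (r = 0.988), Calr (0.977), a chaperone of the endoplasmic reticulum, Acaa2 (0.976), an enzyme of mitochondrial fatty acid oxidation, Dusp8 (0.971), a phosphatase of MAP kinases, and Gm45193 (0.970). For Slc39a7, the member with the highest level, they were Stx8 (0.964), Cldnd1 (0.946), Fkbp8 (0.924), Chchd4 (0.924) and Wdr70 (0.923). These values describe the 9 libraries, which share the group differences and the scaling, and were the highest of many.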

How the data were processed

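RNA of sorted cells was sequenced from 9 mouse libraries with a stranded mRNA kit that marks molecules. The authors' processing notes name Trimmomatic 0.36 and GRCm38 (mm10), and the counting program was not given in the sources used here. The authors deposited RPKM for 15228 genes, which were used, and, for their group comparisons, p-values and log2 ratios, which were not. Each deposited RPKM value, times the exon length of its gene, was a whole multiple of 1 step for each library (tolerance 0.001 reads), which gave reads for 100% of values and the library totals.

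Groups were taken from sample titles. Genes whose mean reached 0.5 RPKM were fitted in limma 3.58.1 (R 4.3.3) with 1 coefficient for each group over the 9 libraries and the limma-trend variance prior. The values were log2(RPKM + 0.1), with Benjamini-Hochberg adjustment over all tested genes, after a test on simulated data. Fold changes on this scale understate those of low genes. The alternatives were quantile normalization, no filter, a filter at 1 RPKM, 1 as the pseudocount, only the 6 libraries compared, a replicate block, each library left out, a 1.5-fold limit and voom on recovered reads. The members, lists and tests were chosen with earlier results of these data known. All members are described. Of the zinc handling list, the 3 called genes with the largest change were named in each direction, and most-alike genes were the 5 with the highest r. Promoters were from RefSeq (GRCm38.p6).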

Additional observations from a re-analysis of the deposited data

How the results depend on the processing

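Of 429 refits of the members' log2 fold changes, 392 kept their direction and their side of the threshold, 10 lost the call and 27 changed sign, and no uncalled value became called. The direction could not change in refits with another filter, only the 6 libraries compared or the replicate block. The same holds where the library left out was of the group outside the comparison, so these counts overstate how stable the direction was. No shared deviation of same-numbered libraries was seen, with correlations of -0.0623 to 0.0268 over 9 pairs. This cannot show whether such libraries were prepared together. With the replicate block, 1 member (Slc39a1) was called in ONC/Ctrl, and Slc39a3 had a log2 fold change of -0.25 (limma adjusted p = 0.0631). With the 1.5-fold limit, 1 member was called in ONC/Ctrl and 0 in TPEN/Ctrl, and 0 zinc handling genes in TPEN/ONC. With only the 6 libraries compared, 0 zinc handling genes were called in TPEN/ONC. Leaving out 1 library gave 1 to 2 members called in ONC/Ctrl and 0 to 1 in TPEN/Ctrl, and 0 to 1 zinc handling genes in TPEN/ONC and 1 to 3 in TPEN/Ctrl.

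The values that changed sign were all uncalled. In ONC/Ctrl, quantile normalization gave -0.027 for Slc39a6, -0.0093 for Slc39a13 and -0.11 for Slc39a14, and voom -0.018 for Slc39a6 and -0.028 for Slc39a14. In TPEN/Ctrl, quantile normalization gave -0.022 for Slc39a14. Leaving out 1 library gave -0.039 to 0.035 for Slc39a6, -0.026 to 0.148 for Slc39a9, -0.078 to 0.037 for Slc39a10, -0.039 to 0.113 for Slc39a13 and -0.073 to 0.085 for Slc39a14 in ONC/Ctrl. It gave -0.074 to 0.013 for Slc39a6, -0.072 to 0.047 for Slc39a9 and -0.012 to 0.122 for Slc39a14 in TPEN/ONC. In TPEN/Ctrl it gave -0.065 to 0.011 for Slc39a6, -0.019 to 0.134 for Slc39a9, -0.167 to 0.034 for Slc39a11, -0.14 to 0.025 for Slc39a13 and -0.0023 to 0.135 for Slc39a14. The cause of these changes was not tested. Slc39a11 has no value with a mean of at least 1 RPKM required, since it is left out there. Counting error, among the members highest for Slc39a11, limits what the depth can show.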
